A study of Homo sapiens with 8 samples.

Results

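Of the 7081 named genes with a peak of N6-methyladenosine (m6A) in BCPAP thyroid cancer cells, 484 had 2 or more separate m6A peaks annotated to the 3' untranslated region (UTR) and no peak annotated to the 5' UTR. These genes carried 1163 3' UTR peaks, out of 4695 3' UTR peaks and 10987 peaks in all. The genes were chosen by annotation and position alone, with no use of any fold change: at least 2 of their 3' UTR peaks had to lie apart without overlapping, and peaks with no gene name or assigned to a pseudogene were left out. BCPAP cells were established from a human papillary carcinoma of the thyroid, and they were either controls or carried a METTL3 knockdown. RNA fragments bound by an m6A antibody were sequenced beside unselected input RNA, which gave 8 libraries in 4 groups of 2, an input and an immunoprecipitate group for each genotype. Control titles carry Ctrl, whereas each knockdown group holds 1 library titled sh1 and 1 titled sh3. The sh1 titles start with A and the sh3 titles with B, and each control group holds 1 library of each letter. What the letters stand for is not stated, and sh1 against sh3 cannot be told apart from A against B.

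METTL3 is the catalytic subunit of the nuclear methyltransferase that places m6A on messenger RNA while it is being made. The mark is known to gather around stop codons and along 3' UTRs, where YTH-domain proteins and IGF2BP proteins bind it and affect how long the transcript lasts and how much it is translated. The 3' UTR also holds the binding sites of microRNAs and of RNA-binding proteins, and alternative polyadenylation can keep or remove its distal part.

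All fold changes, p-values and false discovery rates (FDR) below are those of the authors' deposited table, which compares knockdown with control once per peak. The table holds no values per library, so no replicate spread can be attached to any value, the depth is unknown, and the labels do not tell whether libraries of 1 group stem from separate cultures. No header names the condition that serves as reference. The log2 fold change was read as knockdown relative to control, and "lower" and "higher" would swap if it were the reverse. Peaks with a deposited FDR under 0.05 count as called. METTL3 had 0 peaks in the table, so the knockdown could not be checked there. Peaks were listed for 4 of 15 thyroid marker genes (DIO2, DUOX1, PAX8 and HHEX) and, among markers of other cell types, for the endothelial genes PECAM1 and CDH5 and the mural cell gene PDGFRB, and none of these genes was among the 484. A peak is not an expression level, so these counts do not test the cell type. Whether the deposited comparison corrects for the input libraries is not stated, so less m6A per transcript and less of the transcript cannot be told apart here.

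The 3' UTR peaks of these genes were more often lower than higher in the knockdown. Called lower were 142 of the 1163 peaks (12.2%, against 10.6% of all peaks) and called higher were 59 (5.07%, against 6.52% of all peaks). Together 17.3% were called, close to the 17.1% of all peaks, so the number of calls does not set these peaks apart from the table. Of all 4695 3' UTR peaks 15.9% were called lower and 5.94% higher, or 21.8% in all. Beside their own region, the peaks of these genes thus had smaller shares of calls in both directions, a difference that was not tested. The lower ones made up 70.6% of the 201 called peaks (95% Clopper-Pearson interval 63.8 to 76.8%, which covers counting error only and treats peaks of a gene as independent, which they are not). The called changes were small: the median log2 fold change was -0.41 for lower peaks, equal to 0.755-fold, and 0.42 for higher peaks, equal to 1.33-fold. Over all 1163 peaks the median log2 fold change was -0.29, with quartiles of -0.67 and 0.41 and a range from -4.32 to 4.70, and 62.1% lay below 0. The median over all 10987 peaks of the table was itself -0.24, and with that shift subtracted the 201 called peaks split into 120 lower and 81 higher (59.7% lower).

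Genes with a single 3' UTR place had a larger share of called peaks, a difference that was not tested. Among 2608 peaks of 2441 genes with no 5' UTR peak and 1 such place, 446 were called lower and 154 higher, or 23.0% in all, and 74.3% of those called were lower. Genes that also carried a 5' UTR peak had 763 3' UTR peaks, of which 141 were called lower and 53 higher, or 25.4% in all. The median log2 fold changes of the 3 classes lay within a narrow band, at -0.29 for genes with several peaks, -0.30 for genes with a single place and -0.29 for genes with a 5' UTR peak. The peaks also differed in genomic span, which includes introns, with medians of 330, 374 and 390 bases in the same order.

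**Figure D1:**
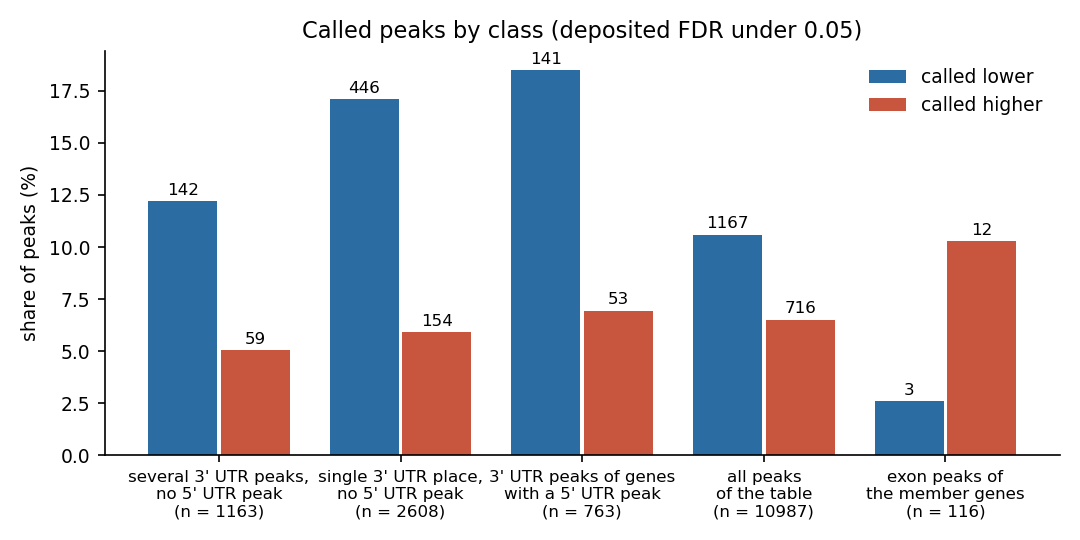
Share of peaks called lower (blue) and higher (red) at a deposited FDR under 0.05, in percent of the peaks of each class, with the number of called peaks above each bar. Peaks of genes with several 3' UTR peaks were called lower in 142 and higher in 59 of 1163 cases, and the exon peaks of the same genes, at the right, were called higher in 12 and lower in 3 of 116 cases.

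Longer genomic spans went with a larger share of called peaks, as they did in the table as a whole, where the shares from the shortest to the longest span class were 5.8%, 14.9%, 22.3%, 29.3% and 25.2%. Among the 338 peaks of up to 200 bases 4.14% were called, 14 of them lower and 0 higher, and in this class the median log2 fold change was -0.49. Peaks of 201 to 500 bases gave 51 lower and 17 higher calls, or 16.8% of 405 peaks. From 501 to 1000 bases there were 26 lower and 11 higher calls, or 23.1% of 160 peaks. In the class of 1001 to 5000 bases both directions were almost equally frequent, with 31 lower and 27 higher calls, or 31.5% of 184 peaks. Above 5000 bases, 20 of 76 peaks were called lower and 4 higher. Within span classes the peaks of these genes still had fewer calls than those of genes with a single place: 4.14% against 10.3% up to 200 bases, 16.8% against 21.0% up to 500, 23.1% against 29.9% up to 1000 and 31.5% against 36.3% up to 5000 bases. Above 5000 bases the shares were 31.6% and 30.5%. Why the shares differ was not tested.

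**Figure D2:**
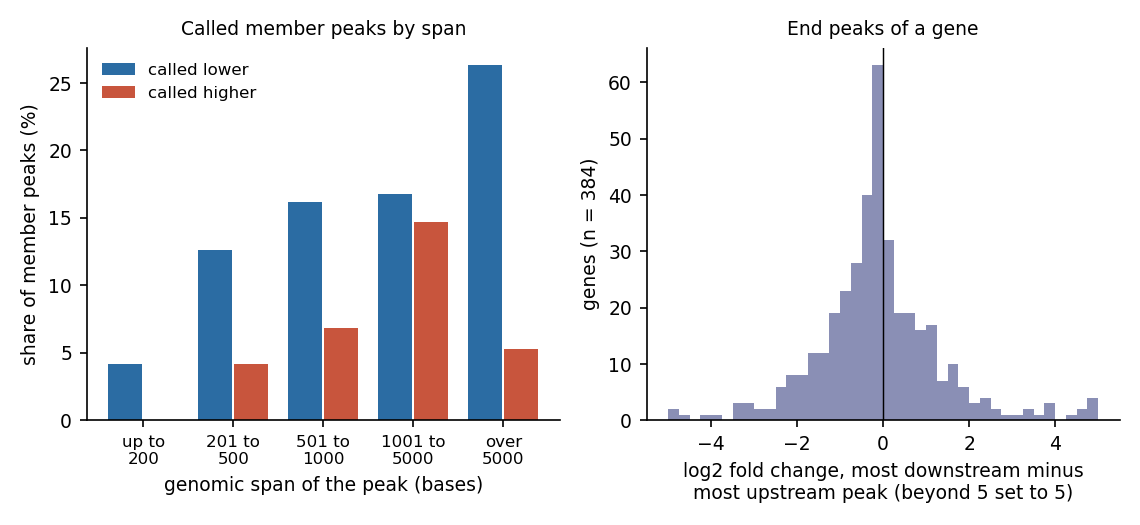
Left, share of the 1163 peaks called lower (blue) and higher (red) by genomic span in bases, from 4.14% and 0 up to 200 bases to 31 lower and 27 higher of 184 peaks between 1001 and 5000 bases. Right, the log2 fold change of the most downstream minus that of the most upstream 3' UTR peak in each of 384 genes, where 234 genes lie below 0.

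Stricter and looser rules kept more lower than higher peaks. At an FDR under 0.01 there were 85 lower and 28 higher peaks, where 5.83% and 3.4% of all peaks passed. At an unadjusted p-value under 0.01 there were 189 lower and 81 higher peaks, beside 13.9% and 8.61% of all peaks. With a further demand that the log2 fold change be at least 1 in size, 17 peaks were lower and 12 higher, beside 1.5% and 1.36% of all peaks. Large called changes were thus rare, and at that size lower and higher calls were close in number.

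Most genes had 2 separate places of 3' UTR peaks, a place being a run of peaks that overlap. There were 397 genes with 2 places, 65 with 3 and 14 with 4 or more, and 8 genes had a chain of overlapping peaks that merged into 1 place. In 71 genes some peaks overlapped, so the 1163 peaks form 1056 places. The number of places had no ordered relation to the share of called peaks, which was 18.2% with 2 places, 12.4% with 3 and 17.7% with 4 or more. Zinc finger genes, taken as symbols that start with ZNF, ZSCAN, ZKSCAN, ZFP or ZBTB, made up 44 of the 484 genes (9.09%), beside 131 of the 2441 genes with a single place (5.37%), and 20 of the 44 lie on chromosome 19. Of their 110 peaks 7 were called lower and 2 higher (8.18%, against 17.3% of the 1163 peaks and 17.1% of all peaks).

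AKAP8L, a nuclear A-kinase anchoring protein, had the most places, 6, with 8 peaks between chr19:15380031-15380479 and chr19:15400752-15401179. Of these 8 peaks 1 was called, at a log2 fold change of -0.31 (FDR 0.0234), and the others ran from -0.30 to 1.03. ZNF549, a zinc finger gene, had 5 peaks from -1.74 to 2.71, none of them called; all 5 lie outside the RefSeq bounds of ZNF549 and inside those of ZNF550. ELFN2, a transmembrane protein with leucine-rich repeats, had 4 peaks that were all below 0, of which the first by coordinate was called at -0.90 (FDR 0.00479).

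THRA encodes the thyroid hormone receptor alpha. Its 4 separate 3' UTR peaks had log2 fold changes of -0.21, -0.38, -0.80 and -1.02 by ascending coordinate, between chr17:40088446-40089899 and chr17:40092294-40092653. Only the peak at -0.80 was called (FDR 0.00049), and the one at -1.02 had an FDR of 0.178. CCDC66, a protein of centrosomes and cilia, had 1 called peak at 1.37 (FDR 0.00339) and 3 peaks that were not called, at -0.90, -0.90 and -0.58. The THRA peaks thus shared a sign, and those of CCDC66 did not.

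Within a gene the 3' UTR peaks often did not share a sign. All peaks lay below 0 in 187 genes and above 0 in 82 genes, while 215 genes had peaks of both signs. The range between the lowest and highest log2 fold change of a gene had a median of 0.797, and it was at least 1 in 195 genes (40.3%). Few genes had more than a lone call: 151 genes had a called peak, 113 of them exactly 1, and in 23 genes every 3' UTR peak was called. By direction, 101 genes had lower calls only, 42 had higher calls only and 8 had calls of both signs.

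Over all neighbouring places of a gene the changes were nearly unrelated in size, most of these places having no call. Over 572 pairs of neighbouring places in 476 genes, each place taken by its peak with the smallest p, Pearson's r was 0.021 and Spearman's rho 0.072 across pairs, given as a description because pairs share libraries and, in part, genes. The signs matched in 339 pairs (59.3%, 95% Clopper-Pearson interval 55.1 to 63.3%), made of 235 pairs below 0 and 104 above. Of all places 61.6% lay below 0, and 128 of the 182 called places were lower. Unrelated places would therefore already match in more pairs than an equal split gives. With the median of all peaks subtracted 310 pairs matched (54.2%). In the 410 pairs with no called peak the signs matched in 232, and in the 132 pairs with 1 called peak they matched in 85. When both peaks were called, 22 of 30 pairs had the same sign, or 18 of 30 with the median subtracted. Across these 30 pairs Pearson's r was 0.54 and Spearman's rho 0.29, again as a description. The pair of TMEM185A, at -2.02 and -2.85, lies far from the others and weighs heavily on Pearson's r, which was not computed without it.

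**Figure D3:**
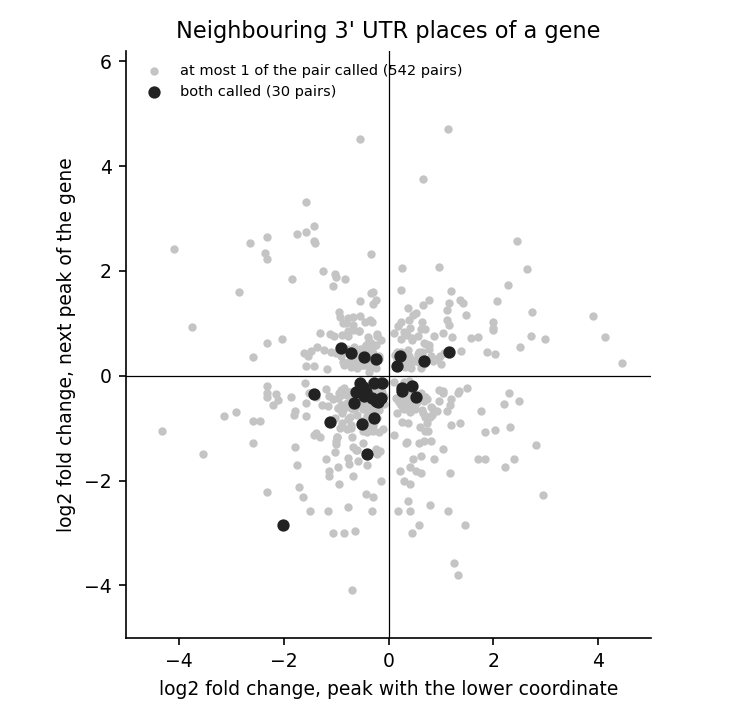
Log2 fold change of neighbouring 3' UTR places of a gene, the place with the lower coordinate on the x axis and the next on the y axis, for 572 pairs. Grey pairs have at most 1 called peak and spread over all 4 quadrants; of the 30 pairs with both peaks called (black), 18 lie with both below 0, 4 with both above and 8 with opposite signs.

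Called pairs that lay close together mostly pointed the same way as deposited, while distant ones did so less often. With a gap under 500 bases 10 of 11 called pairs had the same sign, and with gaps of 500 to 1999 bases 7 of 8 did. At 2000 to 9999 bases 5 of 9 pairs matched, and at 10000 bases or more 0 of 2. With the median of all peaks subtracted the counts were 7 of 11, 6 of 8, 5 of 9 and 0 of 2, so the order was weaker. Over all pairs the share of matching signs was 61.1%, 62.5%, 58.0% and 52.1% in the same order of gaps, with intervals that overlap. With peaks left out that lie inside another protein-coding gene or outside their own, 14 of 16 called pairs under 2000 bases apart matched and 5 of 7 from 2000 to 9999 bases, with 0 called pairs beyond. The order by distance rests on few called pairs, and no test of it was made.

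**Figure D4:**
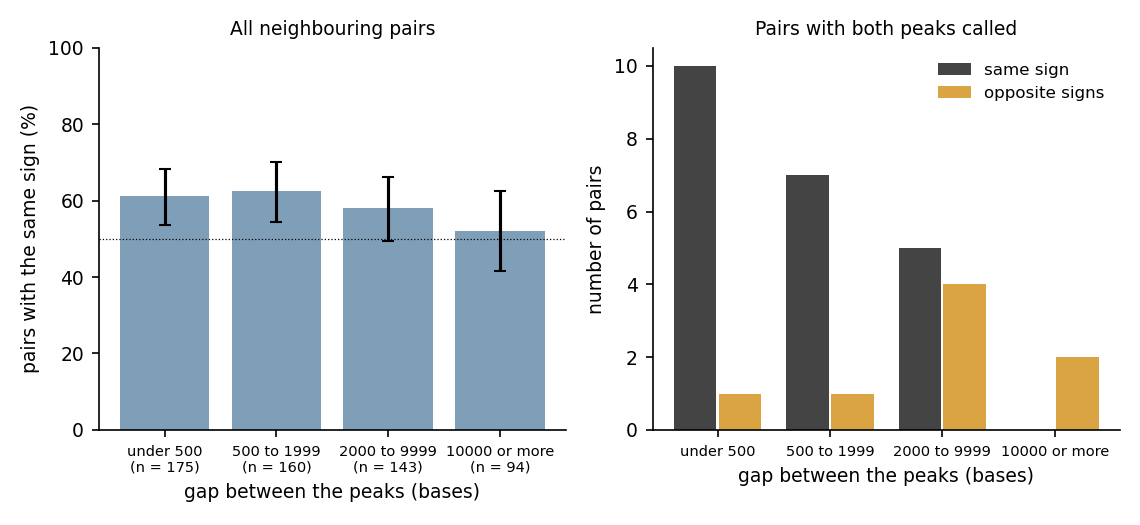
Left, percent of neighbouring pairs with the same sign by the gap between them in bases, with 95% Clopper-Pearson intervals and a dotted line at an equal split; the bars run from 61.1% under 500 bases to 52.1% at 10000 bases or more. Right, number of pairs with both peaks called, 10 same and 1 opposite under 500 bases against 5 same and 4 opposite at 2000 to 9999 bases.

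In 18 of the 484 genes at least 2 separate 3' UTR peaks were called lower, with no called peak of the opposite sign in any of them. Of the 1163 peaks 12.2% were called lower and 5.07% higher, and no matching gene count was made for other genes of the table. They include genes of polyadenylation and RNA binding (PABPN1, PAPOLA, PUM2 and TAF15), of membrane traffic and nuclear import (RAB5A and TNPO3), the G1 cyclin CCND1 and the ribosomal protein gene RPL22. The others were B3GNT4, BTD, EMP1, PTTG1IP, RAD23B, TMEM185A, TMEM9B, TPGS2, TRIM56 and ZNF621. With the median of all peaks subtracted, 5 of the 18 no longer had 2 separate lower calls (B3GNT4, PAPOLA, PTTG1IP, RPL22 and TAF15). In 4 of the 18 a called peak lies within the bounds of another protein-coding gene: DIABLO for B3GNT4, ANKRD28 for BTD, the readthrough gene BCL2L2-PABPN1 for PABPN1 and PP2D1 for RAB5A.

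TMEM185A, a membrane protein of little known function on the X chromosome, had the lowest called peaks among the 18 genes. Its peak at chrX:149597006-149597635 had a log2 fold change of -2.02 (FDR 5.01e-17) and its peak at chrX:149597695-149598175 one of -2.85 (FDR 5.01e-55). Both peaks were called and far below the median of lower calls. Only 59 bases lie between them, and whether they are separate sites was not tested. TMEM185A has a close paralog, TMEM185B, whose 3' UTR peak on chromosome 2 was not called at -0.30 (FDR 0.158), and how reads common to both were counted is not given in the sources used here.

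PUM2 encodes a Pumilio protein that binds 3' UTRs and represses the bound transcripts. Its peaks at chr2:20249979-20250248 and chr2:20251386-20251596 were both called, at -1.12 (FDR 0.000275) and -0.88 (FDR 0.01). PABPN1 encodes the nuclear poly(A)-binding protein that sets tail length. Its long peak at chr14:23325231-23325768 was called at -0.50 with an FDR of 7.94e-27 and its short peak at chr14:23326006-23326155 at -0.91 with an FDR of 0.000398. PAPOLA, the main nuclear poly(A) polymerase, was called at -0.21 (FDR 0.024) and -0.50 (FDR 1.17e-06). In all 3 genes the separate peaks moved the same way with log2 fold changes that differed by less than 0.5.

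EMP1, an epithelial membrane protein, had 2 called peaks of 300 bases each on chromosome 12, at -0.42 (FDR 0.0229) and -1.50 (FDR 0.000603). ZNF621, a zinc finger gene, was called at -1.42 (FDR 0.00178) and -0.36 (FDR 0.0251). BTD, which encodes the biotin-recycling enzyme biotinidase, had called peaks at -1.27 (FDR 0.0479) and -0.29 (FDR 0.00363) and between them 1 that was not called, at -0.55. In these 3 genes the separate peaks shared a sign while their sizes differed by about 1 on the log2 scale.

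TPGS2, a subunit of the tubulin polyglutamylase complex, was called at -0.67 and -0.51 (FDR 0.00234 and 0.0224). RAB5A, the small GTPase of early endosomes, was called at -0.28 and -0.80 (FDR 0.0468 and 0.0117). CCND1, the cyclin that drives entry into the cell cycle, had 5 called peaks in 3 places between chr11:69648124-69651570 and chr11:69654213-69656731, with log2 fold changes of -0.15, -0.42, -0.36, -0.30 and -0.32. Every CCND1 peak was lower as deposited, and the first turned above 0 with the median of all peaks subtracted.

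Only 3 of the 484 genes had 2 or more separate peaks called higher with none called lower, where 5.07% of the 1163 peaks were called higher. SLC25A37, which encodes the mitochondrial iron importer mitoferrin-1, was called at 0.67 (FDR 3.63e-08) for chr8:23568213-23568543 and at 0.28 (FDR 3.8e-05) for chr8:23568932-23572469. PDLIM7, an actin-associated PDZ and LIM domain protein, was called at 0.22 (FDR 0.000224) and 0.37 (FDR 0.0398). ADNP2, a homeobox zinc finger protein, was called at 0.16 (FDR 0.038) and 0.19 (FDR 0.00661). The called values of these 3 genes lay between 0.16 and 0.67.

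Separate called peaks of both signs occurred in 8 of the 484 genes: CAPRIN2, COX16, CPT2, DCBLD1, KDM2A, MPRIP, POLR3E and PRSS23. In 4 of them a called peak lies inside another protein-coding gene, namely COX16 in SYNJ2BP, CPT2 in CZIB, MPRIP in FLCN and PRSS23 in FZD4. With peaks of that kind left out, 4 of the 8 still had calls of both signs. With the median of all peaks subtracted 12 genes had calls of both signs: CPT2 dropped out, and 5 genes joined (B3GNT4, CCND1, PAPOLA, RPL22 and TAF15). All 3' UTR peaks of COX16 lie outside its own RefSeq bounds and inside those of SYNJ2BP and the readthrough gene SYNJ2BP-COX16. Where a peak lies within the bounds of both genes, the 2 cannot be told apart, because the table has no strand.

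CAPRIN2, a protein of RNA granules, had a called peak at -0.91 for chr12:30716482-30719124 (FDR 0.0437) and a called peak at 0.54 for chr12:30728633-30729143 (FDR 0.0372), with another peak, at 0.74, that was not called. DCBLD1, a transmembrane protein, was called at 0.52 for chr6:117544524-117548631 (FDR 2.29e-05) and at -0.41 for the adjoining chr6:117548810-117549767 (FDR 0.0288). Opposite calls thus stood less than 500 bases apart in DCBLD1. KDM2A, which demethylates lysine on histone H3, was called at 0.26 (FDR 0.0191) and -0.24 (FDR 0.00575), with another peak at 0.60 that was not called. POLR3E, a subunit of RNA polymerase III, was called at 0.26 and -0.30.

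COX16, an assembly factor of cytochrome c oxidase, was called at -0.72 (FDR 0.00724) and 0.44 (FDR 0.00437), and its other peak, at -0.20, was not called. CPT2, the inner-membrane enzyme that readies long-chain fatty acids for oxidation in mitochondria, had 5 peaks: 3 called higher at 1.16, 0.38 and 0.45, 1 called lower at -0.20 (FDR 0.0132) and 1 not called at 0.46. MPRIP, which binds myosin phosphatase, was called at -0.24 and 0.32 (FDR 0.0282 and 0.0257). PRSS23, a serine protease, was called at -0.47 (FDR 0.0135) for 1 peak and at 0.31 and 0.36 (FDR 5.75e-05 and 7.08e-06) for an overlapping pair with a gap of 140402 bases to it. Among the 8 genes CAPRIN2 had the widest difference between called peaks of opposite sign.

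**Figure D5:**
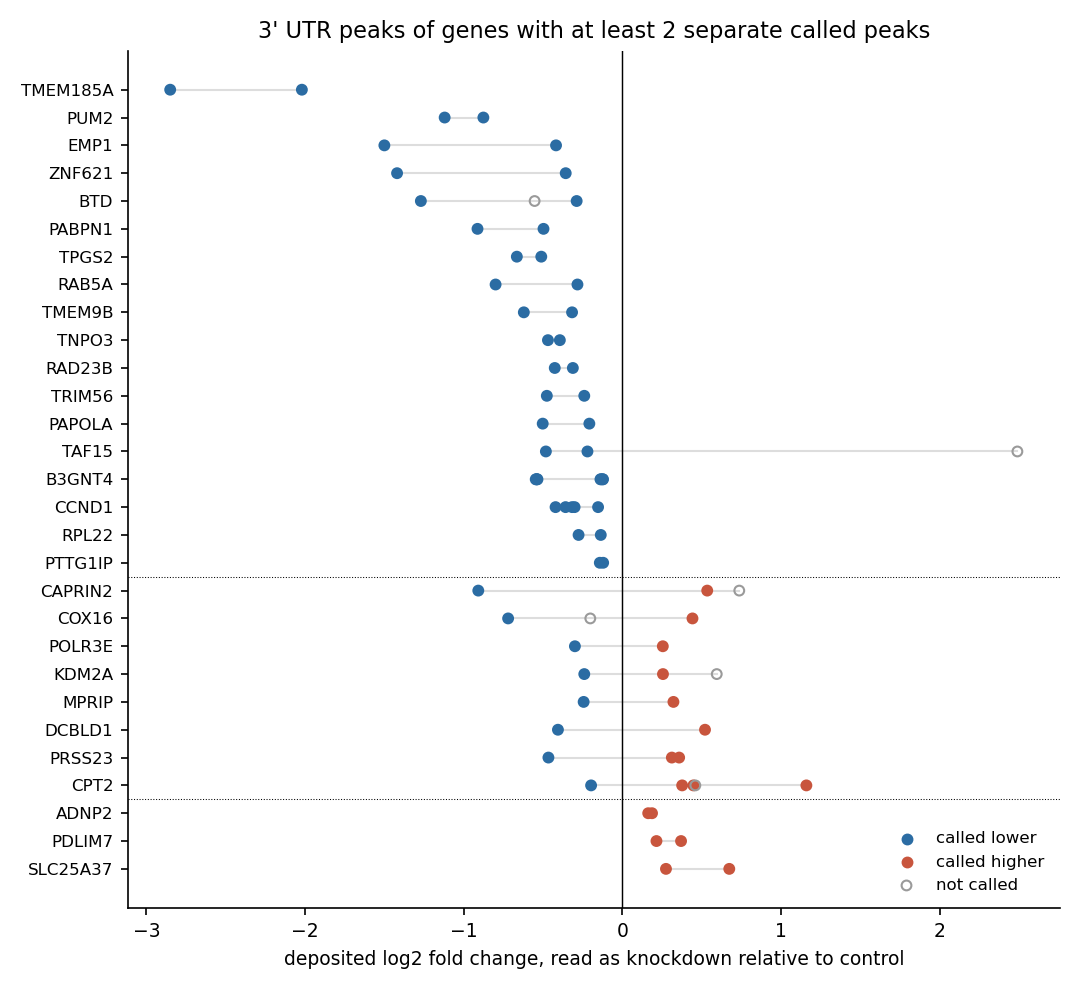
Deposited log2 fold change of every 3' UTR peak of the genes with at least 2 separate called peaks, filled where called lower (blue) or higher (red) and open where not called; dotted lines part the 18 genes with lower calls only, the 8 with calls of both signs and the 3 with higher calls only. TMEM185A stands lowest at -2.02 and -2.85, and the higher calls of SLC25A37, PDLIM7 and ADNP2 lie between 0.16 and 0.67.

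Along the transcript, the most downstream peak of a gene tended to be slightly lower than its most upstream one. In 384 genes whose strand the reference gives, the median log2 fold change was -0.22 for the most upstream and -0.40 for the most downstream peak. The difference within a gene, downstream minus upstream, had a median of -0.16, with an SD of 1.47 across genes. The downstream peak was the lower one in 234 genes (60.9%) and the higher one in 150. Calls gave 54 lower and 24 higher peaks upstream against 39 lower and 11 higher downstream. Downstream peaks also had shorter spans, with a median of 270 bases against 450, and short peaks had lower fold changes, as given above. In 227 genes whose end peaks both spanned at most 1000 bases, the median difference was -0.10 and the downstream peak was lower in 131 (57.7%). In 98 genes whose end peaks fell in the same class of span, the median difference was -0.24 and the downstream peak was lower in 67. In the 18 genes with both end peaks called it was lower in 14, with a median difference of -0.20.

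Exon peaks of the same genes were more often called higher than lower, though on only 15 calls. There were 116 peaks annotated to exons in 92 of the 484 genes, of which 3 were called lower and 12 higher (12.9% in all). Their median log2 fold change was 0.37, with wide quartiles of -1.17 and 1.07, and 40.5% lay below 0. All 3754 exon peaks of the table gave 199 lower and 234 higher calls, or 11.5% in all, with a median of 0.23. The share of calls is thus near that of exon peaks at large, which share the positive median. TLR1 had a called exon peak at 1.92 (FDR 0.0355) beside a called 3' UTR peak at 1.36, and all its peaks in the 3' UTR lie inside TLR6, another Toll-like receptor gene. ELFN2 had an exon peak called at 0.50 (FDR 0.0389) while its only called 3' UTR peak was at -0.90. MPRIP had an exon peak called at 0.69 (FDR 0.000178), and TAF15, an RNA-binding protein of the FET family, had one at -0.23 (FDR 0.0178), below 0 like its called 3' UTR peaks but above the median of all peaks.

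Of 33 genes on a list of m6A and RNA-binding factors, 19 had a peak and 3 belonged here, all with a peak called lower: PUM2, IGF2BP2 and QKI. IGF2BP2, a reader of m6A that stabilises bound transcripts, was called at -0.53 (FDR 4.9e-07) for chr3:185643729-185644208, while its other peak, at -0.70, was not called. QKI, a splicing and stability regulator, was called at -0.35 (FDR 0.00708), with a peak at -0.82 that was not called. The median over the 6 peaks of the 3 genes was -0.76, beside -0.29 over the 1163 peaks and -0.24 over all peaks of any region. Among the 1163, shorter peaks had lower medians, at -0.49 up to 200 bases and -0.33 from 201 to 500 bases.

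In the machinery of microRNAs and mRNA decay 3 of 34 listed genes belonged here, and 1 had calls. PAN2, the catalytic subunit of a deadenylase, had 2 overlapping peaks called higher at 0.93 (FDR 0.00132) and 1.03 (FDR 3.8e-06), and a short peak at 2.00 that was not called (FDR 0.543). AGO2, the slicer Argonaute, had peaks at -0.87 and -0.28 (FDR 0.123 and 0.0955), and DROSHA, which cuts primary microRNAs, had peaks at -1.60 and -0.15 (FDR 0.331 and 0.214). None of the peaks of AGO2 or DROSHA was called.

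Among cell cycle genes 2 of 35 belonged here. CCND1 was called lower as described, and ORC2, a subunit of the origin recognition complex, had peaks at -0.56 and -0.22 (FDR 0.161 and 0.126). From the list of TGF-beta, Wnt, Hippo and Notch genes came ACVR1B, an activin receptor, at -0.22 and -0.27, and APC, the scaffold that promotes breakdown of beta-catenin, with 4 peaks from -1.06 to 0.54. No peak of ACVR1B or APC was called, although the second ACVR1B peak stood at the threshold with an FDR of 0.0501.

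Of the chromatin regulators 3 of 38 belonged here, KDM2A with calls of both signs and KDM6A and KMT2C with none. The peaks of KDM6A, an H3 lysine demethylase, lay at 0.19 and 0.94, and those of KMT2C, an H3 lysine methyltransferase, at -0.67 and 0.56. The transcription factors KLF7, KLF12 and RXRA had no called peak among 6. AP1G1, a subunit of the clathrin adaptor at the Golgi, was the only 1 of 40 listed traffic and cytoskeleton genes here, with a peak of 6615 bases called at -0.27 (FDR 0.000407) and a peak at -0.61 that was not called. None of the listed genes of adhesion and matrix, of receptor kinase signalling or of ubiquitin ligases was among the 484, although 14, 21 and 17 of them had a peak.

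Gene ontology terms of the table, put into 11 groups after values had been seen and so given as counts only, divided the calls unevenly. A gene could stand in more than 1 group. RNA-binding genes, 42 of them, had 23 peaks called lower and 1 called higher, or 23.8% of their 3' UTR peaks. Over all peaks of such genes in the table, of any region, the split was 169 to 50, or 27.6%. The values for the table in the groups that follow also cover all regions, so the regions compared are unlike. All 3' UTR peaks of the table gave 745 lower and 279 higher calls. Lower calls among the 42 RNA-binding genes included the ribosomal protein genes RPL4 (-0.13, FDR 3.98e-27), RPL14 (-0.33, FDR 7.94e-16) and RPS9 (-0.30, FDR 6.31e-19) and the splicing regulator HNRNPR (-0.23, FDR 5.01e-20). Ribosomal protein genes have many near-identical pseudogenes, so reads may have been divided among copies. The called peaks of RPL4 and HNRNPR lie above the median of all peaks, so they turn higher once it is subtracted.

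Mitochondrial genes had 13 peaks called higher and 4 lower in 36 genes, or 19.3% of their peaks, beside 47 higher and 89 lower in the table, or 22.9%. The higher calls came from 9 genes, and SLC25A37, CPT2 and NDUFB6 alone gave 7 of the 13. NDUFB6, a subunit of respiratory complex I, had 2 overlapping peaks called at 1.76 and 1.09 (FDR 0.00269 and 0.0288), both inside SMIM27. MPST, a sulfurtransferase, was called at 0.27 (FDR 0.0158) and GRPEL2, a co-chaperone of protein import, at 0.37 (FDR 0.0186). The 3' UTR peaks of GRPEL2 all lie outside its RefSeq bounds and overlap peaks with no gene name. Those of COX16, also counted in this group, lie outside its bounds as well. ANXA6, a calcium-dependent membrane-binding annexin, was called lower at -0.33 (FDR 2.51e-13) and TRAK1, an adaptor that couples mitochondria to kinesin, at -0.64 (FDR 7.41e-05).

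Golgi genes gave 15 lower and 7 higher calls in 40 genes, or 22.7% of their peaks, near the 21.2% of such peaks in the table. Cytoskeletal genes gave 12 lower and 7 higher in 36 genes, or 22.1% against 18.7% in the table. In 18 genes of protein transport there were 9 lower and 2 higher calls, or 24.4% against 25.1% in the table, among them KPNA6, an importin alpha, at -0.38 (FDR 0.000955) and VPS53, a tethering factor for retrograde traffic, at -0.94 (FDR 0.00263). Signal transduction genes had 6 lower and 0 higher calls in 21 genes, or 10.7% against 15.0% in the table. Genes of transcription regulation, 54 of them, gave 12 lower and 5 higher calls, or 12.9% against 15.7% in the table. The shares called were 18.8% against 16.2% for lipid metabolism, 11.1% against 17.4% for DNA repair and 9.38% against 14.6% for chromatin organization. Plasma membrane genes, the largest group with 69 genes, had the smallest share of called peaks, 9.2%, against 15.6% in the table. Its lower calls included VLDLR, a lipoprotein receptor, at -0.87 (FDR 0.0282), IGF2R, which carries lysosomal enzymes and binds IGF2, at -0.39 (FDR 0.00832), and APLP2, a relative of the amyloid precursor, at -0.16 (FDR 2.88e-08), which turns above 0 once the median of all peaks is subtracted. PCDH1, a protocadherin, was called higher at 0.36 (FDR 0.000407).

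Single large changes stood in genes whose other peaks were not called. ZNF599 had a peak called at -2.50 (FDR 0.0049) and ZDHHC14, a palmitoyltransferase, one at -2.35 (FDR 0.0186), while the other ZDHHC14 peak lay at 2.35 without a call (FDR 0.351). On the higher side LRPAP1, a chaperone of lipoprotein receptors, was called at 3.75 (FDR 0.0417) with its other peak at 0.65, and ZDBF2, a paternally expressed imprinted gene, at 3.31 (FDR 0.00209) with its other peak at -1.58. These genes were singled out after their values were seen, by the size of the called change. Their FDRs were far larger than that of the small change in RPL4.

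How a peak was tied to a gene bears on part of these values. Of the 1163 peaks 204, in 98 genes, overlap the RefSeq bounds of another protein-coding gene, and 35 of the lower and 12 of the higher calls are among them. Of 1151 peaks whose gene matched a RefSeq symbol, 80 lie outside the bounds of that gene. In 133 genes the 3' UTR peaks stretch over more than 10000 bases, and 131 genes have peaks annotated to different transcripts, so that separate peaks need not sit in 1 and the same 3' UTR. Without peaks inside another coding gene or outside their own, 107 lower and 46 higher calls were left.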

How the data were processed

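The values are those of 1 deposited table of 10987 peaks comparing METTL3 knockdown with control, from 8 libraries in 4 groups of 2, per the labels. Tools listed in the submitters' processing notes are edgeR, StringTie, ChIPseeker, HOMER, HISAT2 and fastp, with hg38 and GRCh38 as builds and no roles. Which of them compared the peaks, with what filters or pooling, is not recorded in those notes or the labels. The p-value and the log2 fold change of each peak are the authors' deposited values, and the FDR was recovered from the deposited score, a log10 FDR per the file headers. Spans and distances to the start site are in bases, as deposited by the authors, and coordinates are on GRCh38. Since the table holds no counts per library, depth is unknown.

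The region of a peak was the start of its annotation. Left out were 306 peaks with no gene name and 450 of pseudogenes. Peaks of a gene that overlap were merged into places, each taken by its smallest p. Strand came from the RefSeq annotation of GRCh38.p14. Named genes were the 6 genes with most places, up to 8 genes with separate calls of 1 sign in each direction, 6 with calls of both signs, and up to 3 per gene list; further genes were named after their values were seen. Ties for most places were broken by more peaks and then by the smaller FDR, also after values were seen. The members and lists were chosen with earlier results of these data known. No test of its own was made over the peaks, which are not replicates. The rules were tested on simulated data. Scripts ran on Python 3.11.15 with matplotlib 3.10.9, scipy 1.17.1, numpy 2.4.6 and pandas 2.3.3. Not every marker of other cell types is reported here.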

Additional observations from a re-analysis of the deposited data

How the results depend on the processing

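The number of lower and higher calls changed by more than 1.5 times under 3 settings: 85 and 28 at an FDR under 0.01, 17 and 12 with a log2 fold change of 1 or more in size, and 90 and 29 with spans of at most 1000 bases, against 142 and 59 as deposited. Genes with 2 or more separate peaks called lower numbered 7 instead of 18 at an FDR under 0.01. Those with 2 or more separate peaks called higher, which include CPT2, numbered 2 instead of 4 at an FDR under 0.01, 8 at a p-value under 0.01 and 2 with spans of at most 1000 bases. Genes with calls of both signs numbered 1 instead of 8 at an FDR under 0.01, 2 with spans of at most 1000 bases and 4 without peaks inside another coding gene or outside their own. The share of neighbouring places with the same sign was 54.2% instead of 59.3% with the median of all peaks subtracted. The median difference between end peaks was -0.103 with spans of at most 1000 bases and -0.24 with both spans in the same class, instead of -0.159. The mean log2 fold change of 4 named genes turned positive with that subtraction, to 0.0485 for CAPRIN2, 0.096 for COX16, 0.124 for KLF12 and 0.179 for KMT2C. For the counts, shares and end-peak differences the other settings kept the direction, with values within 1.5 times. Settings on neighbouring genes, strand, span class and neighbouring places were chosen after seeing the data. Other named genes kept their sign with the median subtracted, but their sizes could change more. The mean went from -0.242 to -0.0075 for ACVR1B and from 0.0575 to 0.292 for DCBLD1. No paired analysis was possible because the table gives no values per library, and for the same reason leaving out a library could not be run.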
